A study of Mus musculus with 6 samples.

Results

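The genes of the cytosolic ribosomal proteins were examined in the hippocampus of mice without the aryl hydrocarbon receptor. They were taken as the genes whose probe sets the platform annotation pairs with exactly 1 gene symbol that starts with Rpl or Rps and a digit, or is Rpsa or Fau, leaving out Rps6k genes and symbols with -ps, which mark pseudogenes. This gave 67 genes of 22180 tested, 39 named after the large subunit and 28 after the small subunit. Each was read by the brightest of its probe sets with 1 symbol, and some members had a brighter one with several symbols. Of the 67 genes, 56 are ribosomal proteins proper (32 large, 24 small), 9 are paralogs whose symbol ends in l or l1, and 2 (Rps19bp1 and Rps23rg1) are only named after a ribosomal protein. A further 14 symbols that fit the rule, among them Rpl10, Rpl13a, Rpl24 and Rps2, had only probe sets that carry several symbols and are not members.

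Total RNA of hippocampi dissected from hemibrains was measured on 6 Affymetrix whole-transcript arrays, 1 for each mouse, 3 of genotype Ahr-KO and 3 wild type (labelled wildtype). Ahr encodes this receptor, a transcription factor that ligands activate. The labels give no treatment, age, strain or sex and do not describe the allele. A value is a log2 signal, so a difference of 1 is a doubling, and all differences below are Ahr-KO minus wild type.

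The ribosome joins a small subunit, which reads the messenger RNA, to a large subunit, which forms the peptide bond. Each subunit is built on ribosomal RNA with a fixed set of proteins, most of them present in 1 copy, so cells make these proteins in matched amounts. Many of their messenger RNAs begin with a terminal oligopyrimidine tract, a C followed by further C or T bases, through which mTOR signalling sets their translation. In neurons ribosomes lie in the cell body and also in dendrites and axons.

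The start-site sequences were searched for this tract, which the choice of genes did not use. They come from the RefSeq promoter table of GRCm38.p6, in which 53 of the 67 genes were found by symbol. The search was for a C followed by at least 4 bases that are each C or T, on the strand of the gene only. Among the ribosomal proteins proper with an entry, 10 of 44 (22.7%) had such a tract at the annotated first base of a transcript, against 3.01% of the 27025 genes of the table. When the tract could begin up to 10 bases to either side, 25 of 44 (56.8%) had one, against 34.4% of all genes, and the other 19 had none there. The 25 with a tract in that window had a median difference of -0.05 log2 (range -0.46 to 0.10) and the 19 without one a median of -0.05 (range -0.31 to 0.12), so these 2 sets were alike in their middle value. A match says only that the letters are in the window, and annotated starts can be off by some bases. Shown here are 15 bases before and 15 from the first base on. The genes are the 5 small-subunit genes of lowest p and Rps6, Rpl28 and Rpl35, which have a match at the first base. Capitals mark the match that begins nearest the annotated first base. In Rps27, Rps6, Rpl28 and Rpl35 C or T bases also lie directly before it, so the run of such bases begins further upstream. Rps27 is on chr3:90213634-90213663 (minus strand), Rps6 on chr4:86857353-86857382 (minus), Rpl28 on chr7:4792950-4792979 (plus), Rpl35 on chr2:39005117-39005146 (minus), Rps16 on chr7:28350674-28350703 (plus), Rps25 on chr9:44407699-44407728 (plus), Rps12 on chr10:23787195-23787224 (minus) and Rps28 on chr17:33824548-33824577 (minus).
Rps27: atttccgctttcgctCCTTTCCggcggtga
Rps6: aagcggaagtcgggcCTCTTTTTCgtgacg
Rpl28: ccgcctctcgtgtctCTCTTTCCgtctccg
Rpl35: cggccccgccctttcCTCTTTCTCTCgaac
Rps16: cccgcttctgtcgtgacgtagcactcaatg
Rps25: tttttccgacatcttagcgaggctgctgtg
Rps12: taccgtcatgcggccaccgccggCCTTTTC
Rps28: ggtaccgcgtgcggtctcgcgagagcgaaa
Rps27, Rps6, Rpl28 and Rpl35 thus begin in a tract, that of Rps12 begins 8 bases after the annotated first base and runs on past the bases shown, and in Rps16, Rps25 and Rps28 none begins within 10 bases of the annotated start.

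The arrays were closely alike over all genes, with correlations between pairs of 0.994 to 0.996 both within and between genotypes. Ahr itself read 6.62, 6.91 and 6.74 log2 in Ahr-KO, against 7.68, 7.50 and 7.44 in wild type, so the genotypes did not overlap. Which part of the gene its probe set reads is not given in the sources used here. All 13 hippocampal neuron markers measured, among them Prox1 of dentate granule cells and Wfs1 of CA1 neurons, lay above the median gene on every array. The choroid plexus list (12 of 14 genes measured) stood 1.14 log2 above its 6-array mean on Ahr-KO array 1. On wild-type array 2 it stood 0.63 above, and elsewhere its deviation was -0.49 to -0.40. No gene of the table passed an adjusted p under 0.05 (limma, Benjamini-Hochberg over 22180 genes, 0 called, background 0%), while 1371 had an unadjusted p under 0.05. When limma's prior variance followed intensity 2 genes passed, neither of them ribosomal.

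No ribosomal protein gene passed the test across all genes. Most had a slightly lower mean in Ahr-KO, by differences about as small as those between arrays of 1 genotype, and neither this share nor the difference between the subunits was tested. The mean was lower in Ahr-KO for 24 of 28 small-subunit members and for 25 of 39 large-subunit members, together 73.1%, against a background of 49.3% of all genes tested. Among the 10551 genes that lay above the median gene on every array, as 43 of the 67 members did, the share was 57.3%. The differences were small. Their median was -0.07 log2 in the small subunit and -0.03 in the large, against 0.00 over all genes and -0.02 over the genes above the medians. With the paralogs and the genes only named after a ribosomal protein left out, the medians were -0.08 over 24 and -0.05 over 32 genes. Members were measured on the same 6 arrays, so their differences are not independent of each other, and fewer cells and less RNA per cell cannot be told apart in bulk tissue.

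At an unadjusted p under 0.05 (limma), 3 members were lower and 0 higher. All 3 were of the small subunit (10.7% of its 28 members), and none of the 39 large-subunit members was called. The background was 2.65% of all genes lower and 3.53% higher. The genotypes did not overlap, with the Ahr-KO arrays lower, in 3 members (4.48%), against a background of 5.75%, and in the other direction in 0, against 6.18%. The share without overlap was therefore no higher than among all genes. For 62 of the 67 members the 95% interval lay wholly within 0.5 log2 of 0. The exceptions, whose interval reached beyond 0.5 log2, were Rps27, Rps16, Rps28, Rpl9 and Rps15.

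**Figure D1:**
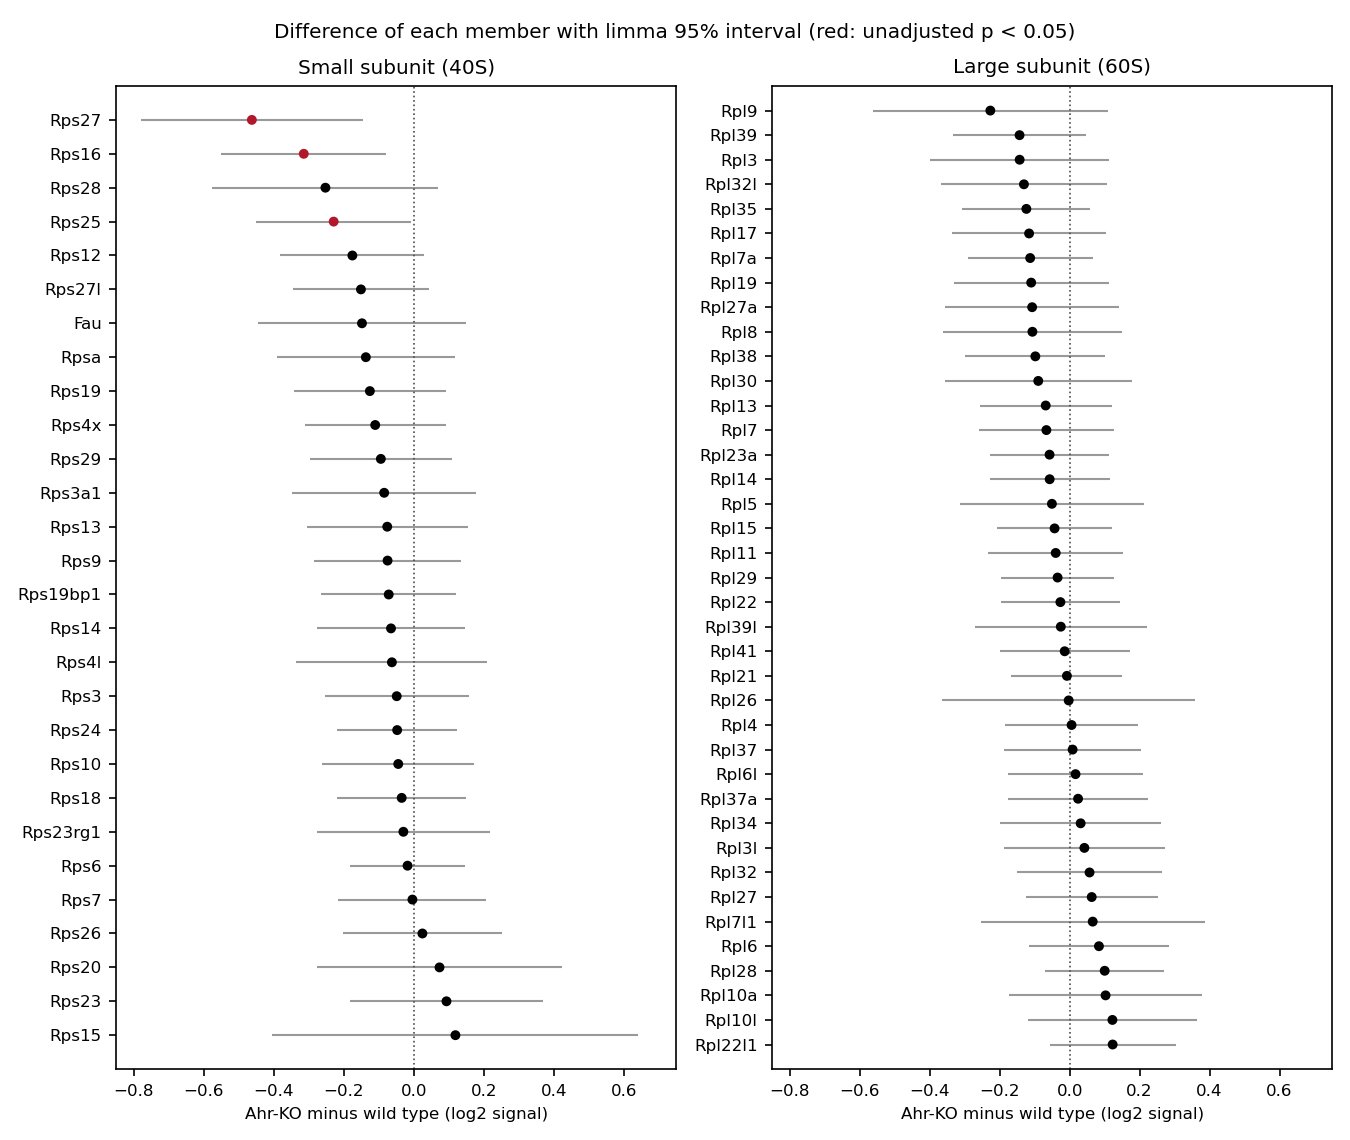
Difference of each of the 28 small-subunit (left) and 39 large-subunit members (right), Ahr-KO minus wild type in log2 signal, with limma's 95% interval, 3 arrays per genotype. Red points mark the 3 members with an unadjusted p under 0.05, Rps27, Rps16 and Rps25, and the intervals of all other members include 0.

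Rps27, a zinc-finger protein of the small subunit, had the lowest p of the members. It read 6.66, 6.99 and 7.23 log2 in Ahr-KO, against 7.38, 7.35 and 7.54 in wild type. Every Ahr-KO array lay under every wild-type array, and the Ahr-KO arrays were spread more widely. The means were 6.96 ± 0.29 and 7.42 ± 0.10 (SD, n = 3 each), a difference of -0.46 ± 0.14 (SE), or 1.38-fold lower in Ahr-KO (limma, unadjusted p = 0.00954, adjusted p = 0.770). Leaving out each array in turn gave -0.60 to -0.31. A brighter probe set that the annotation pairs with both Rps27 and its retrogene Rps27rt read 10.42, 10.63 and 10.32 in Ahr-KO, against 10.60, 10.65 and 10.53 in wild type. There the genotypes overlapped, and the difference was -0.14 ± 0.10 (SE), smaller in size than the -0.46 of the probe set used.

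Rps16, whose tail reaches toward the transfer RNA in the small subunit, was the second. Its values were 5.18, 4.83 and 5.09 log2 in Ahr-KO, against 5.38, 5.26 and 5.40 in wild type, again without overlap. The difference was -0.31 ± 0.10 (SE; limma, unadjusted p = 0.0148, adjusted p = 0.770), and it was -0.21 without Ahr-KO array 2. This probe set lay below the median gene on every array. A brighter one, paired with Rps16, Rps16-ps2 and a further locus, read 9.36, 9.64 and 9.47 in Ahr-KO, against 9.84, 9.63 and 9.52 in wild type, with overlap and a difference of -0.17 ± 0.12 (SE).

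Rps25, a small-subunit protein that some viral internal ribosome entry sites need, read 8.48, 8.74 and 8.47 log2 in Ahr-KO, against 8.85, 8.83 and 8.69 in wild type. Ahr-KO array 2 lay above the lowest wild-type array, so the groups overlapped. The difference was -0.23 ± 0.10 (SE; limma, unadjusted p = 0.0442, adjusted p = 0.806). Its unadjusted p stayed under 0.05 in 8 of 14 alternatives and was 0.228 when Ahr-KO array 1 and wild-type array 2 were both left out (difference -0.17). A dimmer probe set shared with Ccdc84 read 6.70, 6.66 and 6.70 in Ahr-KO, against 6.82, 6.82 and 6.83 in wild type. There the genotypes did not overlap, and the difference was -0.14 ± 0.07 (SE; limma, unadjusted p = 0.0904).

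Further small-subunit members had lower means in Ahr-KO without an unadjusted p under 0.05. Rps12, a protein of the small-subunit head, read 10.03, 10.19 and 9.95 log2 in Ahr-KO, against 10.28, 10.30 and 10.13 in wild type (-0.18 ± 0.09, SE). It had 8 probe sets, of which 6 held identical values, and all differed by between -0.19 and -0.14. Rps28, which lies near the exit of the messenger RNA path, read 9.32, 9.82 and 9.37 in Ahr-KO, against 9.93, 9.67 and 9.68 in wild type (-0.25 ± 0.14, SE). Ahr-KO arrays 1 and 3 were low in both genes, while Ahr-KO array 2 lay among the wild-type arrays. Without that array the difference of Rps28 was -0.41, without Ahr-KO array 1 it was -0.16 and without wild-type array 1 -0.17. Rps19, which is often mutated in human Diamond-Blackfan anaemia, read 8.71, 8.85 and 8.53 in Ahr-KO, against 8.84, 8.86 and 8.77 in wild type (-0.13 ± 0.10, SE). The X-linked Rps4x read 9.01, 9.22 and 9.08 in Ahr-KO, against 9.27, 9.26 and 9.10 in wild type (-0.11 ± 0.09). In both genes Ahr-KO array 2 again lay within the wild-type range. The difference of Rps19 was -0.04 without Ahr-KO array 3 and -0.20 without Ahr-KO array 2. That of Rps4x was -0.06 without Ahr-KO array 1 and -0.17 without either Ahr-KO array 2 or wild-type array 3. Rpsa, first described as a laminin receptor, differed by -0.14 ± 0.11, and Fau, which encodes a ubiquitin-like protein fused to a ribosomal protein, by -0.15 ± 0.13 (SE). The highest of the small subunit was Rps15 at 0.12 ± 0.23 (SE), a dim probe set that ranged from 3.98 to 4.59 in Ahr-KO and from 3.79 to 4.63 in wild type. Rps6, the substrate of S6 kinase, differed by -0.02 ± 0.07 (SE).

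**Figure D2:**
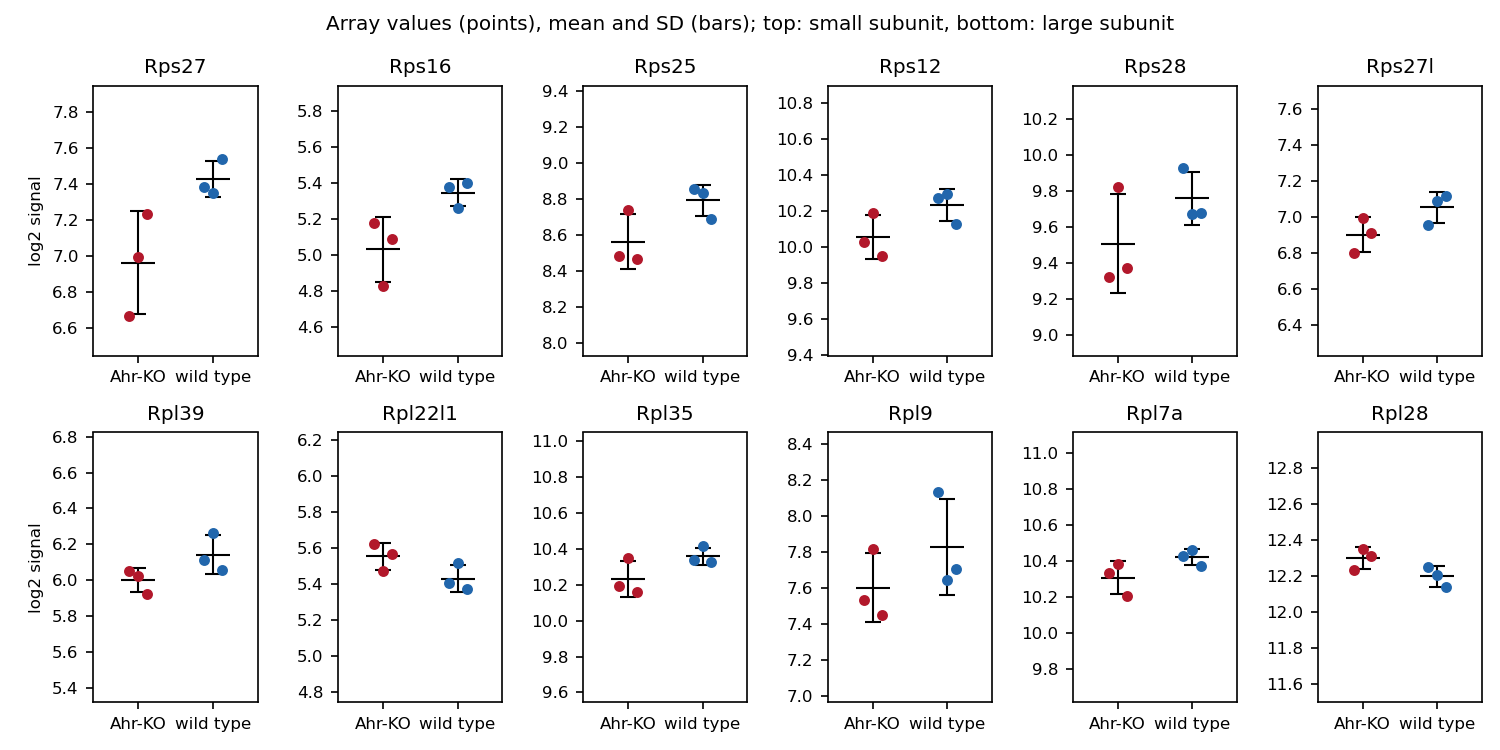
Log2 signal of the 6 members of lowest p in the small subunit (top) and the large subunit (bottom), with Ahr-KO left and wild type right, points for the 3 arrays of each genotype, and bars for the mean and SD. All panels span the same number of log2 units, on axes that do not start at 0, and the points of Rps27, Rps16 and Rpl39 do not overlap between genotypes.

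In the large subunit no member had an unadjusted p under 0.05. Rpl39, which lines the tunnel through which the new peptide leaves, had the lowest p and was the only large-subunit member without overlap. It read 6.05, 6.02 and 5.93 log2 in Ahr-KO, against 6.11, 6.26 and 6.06 in wild type (-0.14 ± 0.08, SE; limma, unadjusted p = 0.122). The gap between the highest Ahr-KO and the lowest wild-type array was very small, and without wild-type array 2 the difference was -0.08. This probe set did not lie above the median gene on every array. One shared with Gm11694 and Gm15067 overlapped between genotypes and differed by -0.04 ± 0.08 (SE). Rpl9 had the lowest difference, -0.23 ± 0.15 (SE), with 7.53, 7.82 and 7.45 in Ahr-KO, against 8.13, 7.64 and 7.71 in wild type. It rested mainly on wild-type array 1, without which it was -0.07. Rpl35, which sits at the rim of the tunnel, read 10.19, 10.35 and 10.16 in Ahr-KO, against 10.33, 10.41 and 10.32 in wild type (-0.12 ± 0.08, SE). Rpl7a read 10.34, 10.39 and 10.20 in Ahr-KO, against 10.43, 10.46 and 10.37 in wild type (-0.11 ± 0.08). In both genes Ahr-KO array 2 lay inside the wild-type range and Ahr-KO array 3 was the lowest, and without that array the difference of Rpl7a was -0.06. Rpl3, near the peptidyl transferase centre, read 8.99, 8.84 and 8.75 in Ahr-KO, against 9.12, 9.10 and 8.78 in wild type (-0.14 ± 0.11). The paralog Rpl32l, a dim probe set, read 5.36, 5.22 and 5.22 in Ahr-KO, against 5.49, 5.51 and 5.18 in wild type (-0.13 ± 0.10). Both overlapped because wild-type array 3 was low. Without that array the differences were -0.25 for Rpl3 and -0.24 for Rpl32l (limma, unadjusted p = 0.0366 and 0.0312). Rpl3 was at -0.08 without wild-type array 1 and at -0.09 without either wild-type array 2 or Ahr-KO array 3. Rpl32l was at -0.08 without wild-type array 1 and at -0.07 without wild-type array 2. Rpl28 went the other way, with 12.23, 12.35 and 12.31 in Ahr-KO, against 12.25, 12.20 and 12.14 in wild type (0.10 ± 0.07, SE). The brightest member, Rpl21, read 12.81, 12.80 and 12.74 in Ahr-KO, against 12.75, 12.82 and 12.80 in wild type, so its groups lay together (-0.01 ± 0.07, SE). Of all 67 members 42 differed by less than 0.1 log2, and between the quartiles the differences ran from -0.14 to -0.03 in the small subunit and from -0.10 to 0.03 in the large.

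The members were also grouped by their place in the ribosome. Of 8 measured proteins of the exit tunnel wall and rim 7 had a lower mean in Ahr-KO, with a median of -0.08 log2 and a range of -0.14 (Rpl39) to 0.01 (Rpl4). Rpl5 and Rpl11, which travel to the ribosome in 1 particle and when free bind the p53 inhibitor Mdm2, differed by -0.05 ± 0.11 and -0.04 ± 0.08 (SE). Along the decoding centre and messenger RNA path 4 of 7 measured proteins were lower, with a median of -0.05 and a range of -0.25 (Rps28) to 0.12 (Rps15). The 10 measured genes whose human counterparts are mutated in Diamond-Blackfan anaemia had a median of -0.04, with 9 of 10 lower. In none of these lists did a gene have an unadjusted p under 0.05 (limma). The probe sets used for Rpl5, Rpl11 and Rpl26 did not lie above the median gene on every array. Brighter ones shared with other symbols put Rpl5 at -0.04 ± 0.10 and Rpl26 at -0.13 ± 0.09 (SE). The Rpl26 probe set used differed by -0.003 ± 0.16 (SE).

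The paralogs and their parents were read by separate probe sets and could be set side by side. Rpl22l1, a paralog of Rpl22 that can take its place in the ribosome, read 5.62, 5.47 and 5.57 log2 in Ahr-KO, against 5.41, 5.52 and 5.37 in wild type. Its difference of 0.12 ± 0.08 (SE) was the highest of all members, and that of Rpl22 was -0.03 ± 0.07. Rps27l, a p53-induced paralog of Rps27, read 6.80, 7.00 and 6.91 in Ahr-KO, against 6.96, 7.09 and 7.12 in wild type (-0.15 ± 0.08, SE). Its groups overlapped, the difference was -0.10 without Ahr-KO array 1, and Rps27 as given above differed by -0.46. Rpl39l differed by -0.03 ± 0.11, Rpl3l by 0.04 ± 0.10, Rpl7l1 by 0.07 ± 0.14, Rps4l by -0.06 ± 0.12 and Rpl10l by 0.12 ± 0.11 (SE). Rpl32l and Rpl6l differed by -0.13 ± 0.10 and 0.02 ± 0.08, while their parents Rpl32 and Rpl6 differed by 0.06 ± 0.09 and 0.08 ± 0.09 (SE). Over all 9 paralogs 4 were lower and 5 higher (median 0.02), and of the 8 parents that are members 6 were lower and 2 higher (median -0.09). The difference between paralogs and parents was not tested. Of the paralogs only Rpl6l and Rps27l lay above the median gene on every array, and of the parents all but Rpl6 and Rpl39 did. The medians thus set mostly dim probe sets against brighter ones. Rpl6l read brighter than its parent, with means of 9.91 in Ahr-KO and 9.89 in wild type, against 6.27 and 6.19 for Rpl6. Whether a probe set also reads the other gene of its pair was not tested. On chromosome 12, which also holds Ahr, lie the members Rps7, Rps29 and Rpl10l, which differed by 0.00 ± 0.09, -0.09 ± 0.09 and 0.12 ± 0.11 (SE).

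The members also shared differences between arrays of 1 genotype. On Ahr-KO arrays 1 and 3 only 6 and 5 of the 28 small-subunit members lay above their own 6-array mean, but on Ahr-KO array 2 23 did, against 23, 20 and 15 on the wild-type arrays. The median deviations of the small subunit were -0.08, 0.06 and -0.09 log2 on the Ahr-KO arrays, against 0.08, 0.07 and 0.01 on the wild-type arrays. For the large subunit they were -0.02, 0.05 and -0.07, against 0.04, 0.03 and -0.02. Ahr-KO array 2 thus lay with the wild-type arrays in both subunits, and Ahr-KO array 3 was the highest array for none of the 67 members. The pooled SD of these array medians within a genotype was 0.06 log2 in the small subunit and 0.05 in the large. Differences between genotypes were of like size or smaller. Over the members their median was -0.07 in the small and -0.03 in the large subunit, and their mean -0.09 and -0.03. The SD is that of single arrays, while these differences are between means of 3 arrays, so the 2 are not the same measure. Without Ahr-KO array 2 the small-subunit median was -0.14 and 5 of 28 members were lower at an unadjusted p under 0.05 (limma), against 3.64% of all genes. Without Ahr-KO array 3 the median was -0.040 and 2 were lower, against 2.12% of all genes. For the large subunit the median was -0.06 without Ahr-KO array 2 and -0.01 without Ahr-KO array 3, and without wild-type array 3 those 2 of 39 members, Rpl3 and Rpl32l, were lower at that p, against 2.19% of all genes.

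**Figure D3:**
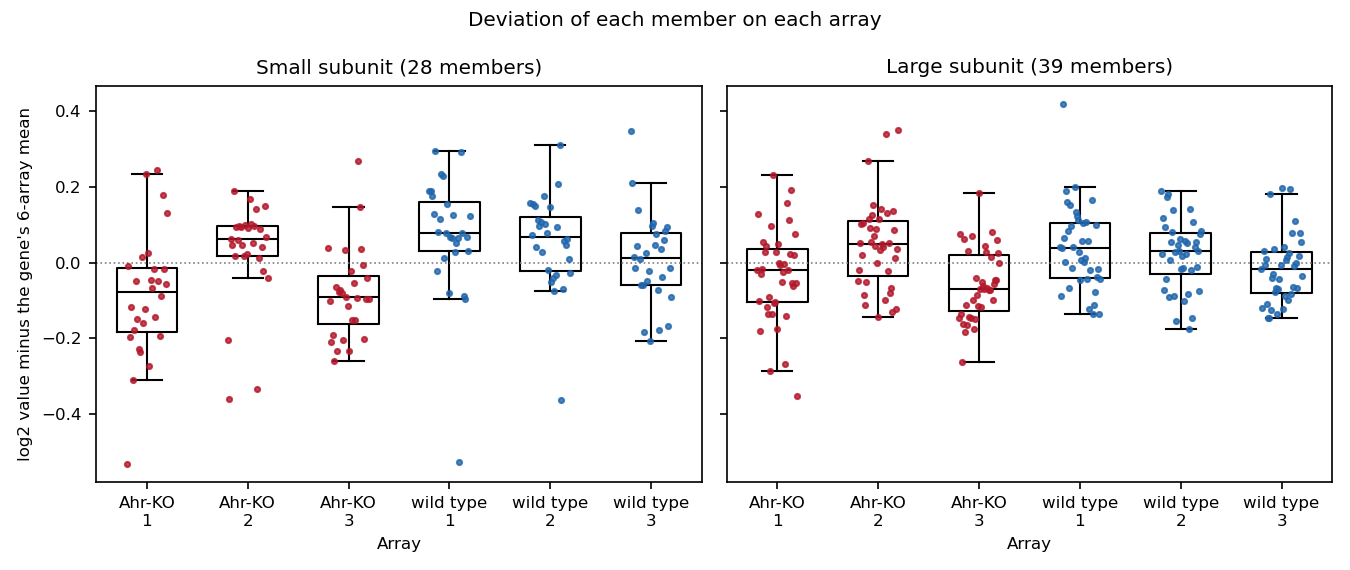
Deviation of each member from its own 6-array mean in log2 signal, by array, with Ahr-KO arrays left of wild-type arrays, for the small (left) and large (right) subunit. Boxes give the quartiles, lines the median and points the members, and Ahr-KO arrays 1 and 3 sit below 0 in the small subunit while Ahr-KO array 2 sits above it.

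Other cell types also varied between arrays. The oligodendrocyte list (13 of 14 genes measured) had a mean deviation of -0.34 log2 on Ahr-KO array 1 and between 0.01 and 0.13 on the other 5, and the microglial list (11 of 12) -0.18 on Ahr-KO array 1 and 0.16 on Ahr-KO array 2. Lists of hippocampal neurons, astrocytes, endothelium, blood cells (3 of 9) and neighbouring brain regions stayed between -0.18 and 0.19. Between genotypes some of these lists differed about as much as the ribosomal ones. Of 10 endothelial genes 9 were higher in Ahr-KO on average, with a mean difference of 0.09 log2 over the list, and 3 of 10 (Vwf, Abcb1a and Slco1a4) were higher at an unadjusted p under 0.05 (limma), against 3.53% of all genes. Of 13 hippocampal neuron genes 10 were higher (mean difference 0.07), and of 13 oligodendrocyte genes 9 were lower (-0.07). The mean difference was -0.09 over the small and -0.03 over the large subunit. Without Ahr-KO array 1 and wild-type array 2, where choroid plexus genes were high, the medians were -0.06 in the small and -0.03 in the large subunit, and 2 small-subunit members were lower at an unadjusted p under 0.05 (limma), against 2.80% of all genes. The part of the cell type lists in the ribosomal values was not tested otherwise.

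**Figure D4:**
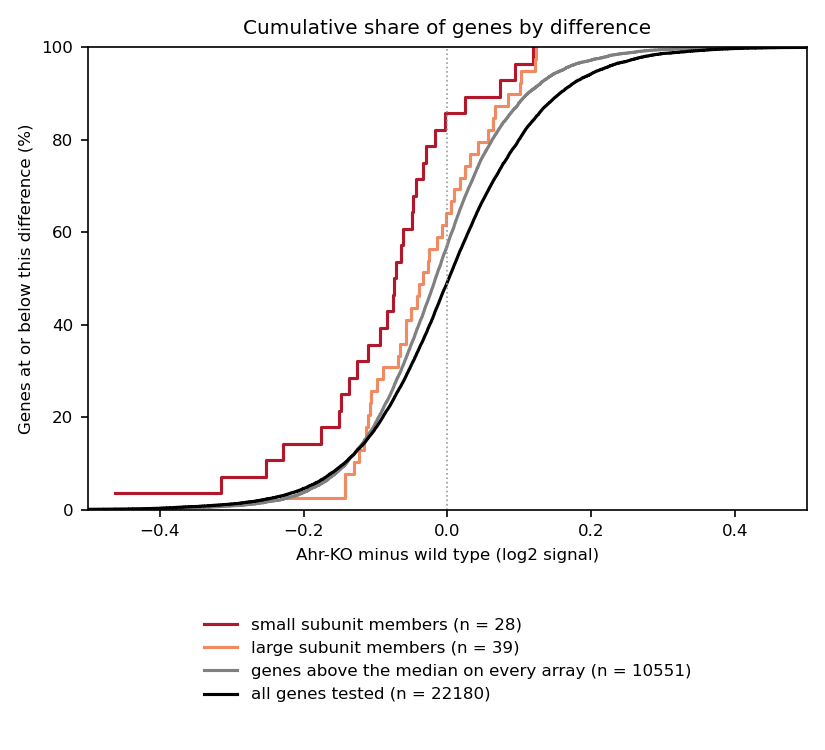
Cumulative share of genes (percent) by their difference in log2 signal, Ahr-KO minus wild type, for the 28 small-subunit and 39 large-subunit members, the 10551 genes above the median on every array and all 22180 genes tested. Over most of its length the small-subunit curve lies left of the others. It reaches 0 at 85.7%, the large-subunit curve at 64.1%, against 49.3% for all genes.

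Probe sets that were not used bear on how far a single probe set can be trusted. Of 24 members with several probe sets, 3 (Rps12, Rps19 and Rpl23a) had some that held identical values, and in Rpl23a both did. Among the 23 with probe sets of different values, all had the same sign of difference in 16 and not in 7. These 7 were Rpl3, Rpl21, Rpl35, Rpl41, Rps20, Rps26 and Fau. The unused probe sets differed by -0.26 and 0.06 for Rpl3, by -0.09 and 0.06 for Rpl35 and by 0.02 for Fau. Ribosomal protein genes have many processed pseudogenes, whose transcripts a probe can also bind. The 15 probe sets with a -ps symbol differed by -0.17 to 0.35 log2, 8 of them lower in Ahr-KO. The 56 probe sets with several symbols that include one of these genes had a median difference of -0.06, with 40 lower and 16 higher. At an unadjusted p under 0.05 (limma) 0 of them were lower and 2 higher, against 2.57% lower and 3.06% higher over all 41345 probe sets, so the share higher was near the background. The 2 probe sets higher at that p were one shared by Rpl28 and Gm10051 (0.51 ± 0.17, SE) and one shared by Rpl13a and the small nucleolar RNA Snord34 (0.30 ± 0.10). Among the genes reached only this way, the brightest probe sets ranged from Rpl24, shared with Zbtb11, to Rpl13a, shared with Snord32a. They differed by -0.19 ± 0.08 and 0.01 ± 0.09 (SE). Between these lay Rpl10 at -0.15 ± 0.08 and Rpl12 at -0.03 ± 0.07 (SE). Several members had a probe set among the 56 that was brighter than the one used. Those of Rps27 and Rps16 are given above. It differed by 0.05 for Rpl30, -0.13 for Rpl26, -0.15 for Rpl27a, -0.04 for Rpl34, -0.04 for Rpl5 and -0.19 for Rpl37a. In the same order, the probe sets used differed by -0.09, -0.003, -0.11, 0.03, -0.05 and 0.02. For Rpl23a and Rps3 the brighter one differed by -0.07 and -0.03, against -0.06 and -0.05 for the probe sets used.

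The rest of the translation machinery was compared through lists. Of the stalk proteins that recruit elongation factors and other components outside the symbol rule 3 of 5 were measured, and Rplp0, Rplp1 and Rplp2 differed by -0.06 ± 0.14, -0.12 ± 0.13 and -0.08 ± 0.08 log2 (SE). Of 31 measured initiation factors 24 had a lower mean in Ahr-KO, by a median of -0.03, and 0 had an unadjusted p under 0.05. The lowest p belonged to Eif4a2, a helicase (-0.11 ± 0.07), Eif5 (-0.11 ± 0.09) and Eif4g3, a scaffold (-0.09 ± 0.07). Among 14 elongation and termination factors the median was 0.00 and 1 of 14 (7.14%) was lower at an unadjusted p under 0.05 (limma), against 2.65% of all genes. This 1 gene was Eef1d, part of the exchange factor of elongation factor eEF1A, with 7.43, 7.43 and 7.48 in Ahr-KO, against 7.65, 7.62 and 7.67 in wild type. Its arrays agreed closely within each genotype and did not overlap (-0.20 ± 0.07, SE; limma adjusted p = 0.770).

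Genes that build ribosomes showed no call. Of 38 assembly factors 22 were lower and 16 higher (median -0.01), with Nip7 at 0.12 ± 0.07, Nolc1 at -0.11 ± 0.07 and Wdr12 at -0.11 ± 0.08 (SE) having the lowest p. The 15 genes of RNA polymerase I, which transcribes ribosomal RNA, had a median of -0.10, with 12 lower and 3 higher and none at an unadjusted p under 0.05 (limma). Taf1a, a subunit of its promoter selectivity factor, differed by -0.22 ± 0.10, Polr1d by -0.15 ± 0.08 and Taf1c by 0.14 ± 0.08 (SE). Of 17 genes of mTOR signalling 8 were lower and 9 higher (median 0.03). Eef2k, the kinase of elongation factor eEF2, differed by -0.16 ± 0.10, Mtor by -0.11 ± 0.07 and Deptor, an inhibitor bound to mTOR, by -0.14 ± 0.10 (SE).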

How the data were processed

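The authors deposited log2 signals of probe sets. Per the submitters' processing notes they were made with Affymetrix Expression Console and RMA (no version given), and per the labels' protocols RNA was labelled with a GeneChip WT PLUS kit. RMA normalizes arrays to a common distribution, so a shift of all genes cannot be seen. The sources used here give no genome build or probe positions. Symbols were updated through Entrez IDs to RefSeq (GRCm38.p6), rows with 1 symbol were kept, and the probe set with the highest mean stood for each gene, dim ones included. The test was limma's two-sided moderated one (version 3.58.1, R 4.3.3, no intensity trend, no covariate, 4 residual and 4.33 prior degrees of freedom, Benjamini-Hochberg over 22180 genes), tested on simulated data. With 3 arrays against 3 the number of arrays limits the precision. Members and lists were chosen with earlier results of these data known, so lists are described by counts and medians, without a test. Arrays are named by mouse number. Per-array values are given for members with an unadjusted p under 0.05 or among the 8 lowest of a subunit, for paralog pairs and for the extremes, and up to 3 genes of lowest p are named in other lists. Rpl21, Rps6 and the shared probe sets were named after their values were seen. Alternatives covered the variance model, array weights, normalization, a filter, averaged probe sets, a replicate block and left-out arrays. Figures were drawn with matplotlib 3.10.9.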

Additional observations from a re-analysis of the deposited data

How the results depend on the processing

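The difference of 17 named genes (Ahr and 16 members) kept its sign in all 234 recomputed values over up to 14 alternatives. In none of these alternatives did any member have an adjusted p under 0.05. The 16 members were those of lowest p in each subunit, a choice that favours a stable sign, and the signs of the other members were not followed. The intensity trend, the filter and the replicate block leave a difference as it was, so with them the sign could not change. The sizes were less stable, since 11 of the 16 members moved by over 1.5 times in at least 1 alternative, with Rps4x at -0.17 to -0.04 and Rpl3 at -0.25 to -0.08. Averaging all probe sets of a gene took Rpl35 to -0.05 and Rpl9 to -0.13, and repeated quantile normalization took Rpl28 to 0.06. With Ahr-KO array 1 and wild-type array 2 both left out Rps4x was at -0.04, Rps27l at -0.08 and Rpl35 at -0.08. With an intensity trend in limma's prior 2 genes passed over the whole table, and in the other alternatives 0 did. Leaving out each array in turn, the small subunit had 2 to 5 members lower at an unadjusted p under 0.05, the large subunit 0 to 2, and the medians ran from -0.14 to -0.040 log2 in the small and from -0.06 to -0.01 in the large subunit. Values of same-numbered mice did not deviate together (r = -0.15, -0.22 and 0.05 across genes). These 3 correlations cannot tell whether same-numbered mice were paired. Since each mouse number occurs in both genotypes, the replicate block left the median differences at -0.07 and -0.03 by its design. With it 3 small-subunit and 0 large-subunit members were lower at an unadjusted p under 0.05 (limma), and 0 genes passed over the whole table. Arrays of 3 mice per genotype limit what can be called, no detection limit is known for dim probe sets such as that of Rps16, and probes shared with pseudogenes could not be separated.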

Other observations

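Introns of ribosomal protein genes hold small nucleolar RNAs, which guide the modification of ribosomal RNA. By the RefSeq table, 13 such RNAs with a probe set of their own lay inside 11 of the members. Of these 7 had a higher and 6 a lower mean in Ahr-KO, with differences of -0.10 to 0.17 log2, and 0 had an unadjusted p under 0.05 (limma). The 3 of lowest p were Snord83b, Snord58b and Snora33. Snord83b, inside Rpl3, differed by 0.17 ± 0.12 (SE) and its host by -0.14 ± 0.11. Snord58b, inside Rpl17, differed by -0.09 ± 0.08 and its host by -0.12. Snora33, inside Rps12, differed by 0.10 ± 0.09 and its host by -0.18 ± 0.09. The difference between a small RNA and its host was not tested.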
